A study of Mus musculus with 12 samples.

Results

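The genes described here are 10 secreted growth factors that act on blood vessels, epithelium and stroma, followed across the cells of a mouse breast tumor: Vegfa, Vegfb, Vegfc and Pgf of the vascular endothelial growth factor family, the epidermal growth factor receptor ligands Hbegf and Areg, the platelet-derived growth factors Pdgfa and Pdgfb, Igf1 and Gdf15. They were chosen by name from 31053 genes counted in each matrix, and all 10 are listed in the files. VEGF-A is the main ligand for endothelial VEGF receptors and is induced by low oxygen, PlGF and VEGF-B bind VEGF receptor 1, and VEGF-C drives lymphatic vessel growth. HB-EGF and amphiregulin are made as membrane precursors that sheddases cut to release the ligands of the EGF receptor. PDGF-A and PDGF-B act on fibroblasts and mural cells, IGF-1 is a survival and growth ligand made by stroma and macrophages, and GDF15 is a stress-induced member of the TGF-beta superfamily. Tumor-associated macrophages are known as a source of several of these factors.

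Single-cell RNA sequencing was performed on spontaneous breast tumors of B6 mice carrying MMTV-PyMT, the polyoma middle T oncogene under the promoter of mouse mammary tumor virus, with no additional treatment. PyMT-PAR2 WT mice were studied beside PyMT-PAR2 G37I mice, in which PAR2 is resistant to signaling by coagulation factor Xa in all cells of the body. CD11c-selected cells, labeled as macrophages and DCs, came from late-stage tumors with 3 samples per genotype, and CD4/CD8-selected T cells came from mid-size tumors with 3 samples per genotype, which makes 12 samples in 4 groups. Cells had been frozen and thawed, the labels give neither age nor sex, and selection cannot be told apart from tumor stage between the 2 selections.

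The counts were deposited as 1 matrix for each selection, with nothing in the files that ties a cell to a sample, so PAR2 WT and PAR2 G37I cells could not be compared and each matrix was treated as 1 sample without any test. Barcodes in each matrix run through the alphabet 6 times, and these 6 stretches, called barcode runs, were used only to describe spread; no run was linked to a genotype. After removing cells with fewer than 200 detected genes, 11639 CD11c-selected cells with 123642015 UMIs and 22806 CD4/CD8-selected cells with 135965765 UMIs remained, with 13314063 to 24231244 and 16203038 to 30168668 UMIs per run. Barcodes that occurred more than once numbered 76 and 51. Run 4 of the CD11c-selected cells stood apart with 360 cells, where the largest run had 2784. Since no run held fewer than 13314063 UMIs, the cells of run 4 were deep. Each of them therefore weighs more than other cells in levels from summed UMIs. Run 3 of the CD4/CD8-selected cells held 541 of the 1124 macrophages of that matrix, so levels pooled over macrophages of the CD4/CD8 selection are compared with and without run 3. Levels are UMIs per 1000000 UMIs of a cell class (CPM) with an exact 95% Poisson interval, which covers counting error only. Where a class had no UMI, the limit that 3 counts would give is printed.

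Cells were assigned to classes by marker lists and not by the growth factors. Of the CD11c-selected cells, 8461 (72.7%) were macrophages, 1262 were DCs, 377 tumor epithelial cells, 182 neutrophil-like cells, 130 fibroblasts and 67 monocytes. C1qa, a macrophage complement gene, measured 3559 CPM in macrophages and monocytes and 73.5 CPM elsewhere, and Epcam measured 3182 CPM in tumor cells and 18.8 CPM elsewhere. The neutrophil-like cells carried S100a8 at 7583 CPM and S100a9 at 12955 CPM, against 5.09 and 2.41 CPM in macrophages, although these genes were not part of the list. Their level of Retnlg, a marker on the list, was 11.7 CPM. Itgax, which encodes CD11c, was at 8.3 CPM in tumor cells and 8.6 CPM in fibroblasts, against 236 CPM in macrophages. Within macrophages, gates named for their leading marker held 165 (Lyve1), 369 (Gpnmb), 846 (Retnla), 706 (Il10), 1399 (Thbs1) and 1446 (Tmem119) cells. A further 946 macrophages passed several gates, and 2584 passed none and are called other macrophages. These other macrophages had a median of 1956.5 UMIs, against 7790 over all macrophages. In them, too few UMIs to pass a gate and absence of the gate markers cannot be told apart. Of the CD4/CD8-selected cells, 19267 (84.5%) were T cells. Fewer cells of a class and less RNA per cell cannot be told apart in the shares of UMIs given here, whereas CPM is a level within the class.

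Promoter sequences are shown for Vegfa, Areg and Gdf15, which represent 3 contrasting patterns among the factors. Vegfa was led by neutrophil-like cells, with monocytes, tumor cells, fibroblasts and some macrophage gates below them. Areg was shared by tumor, macrophage, DC and regulatory T cells, and Gdf15 was nearly limited to macrophages. The windows are the 250 bases before the RefSeq transcription start on GRCm38.p6, written 5′ to 3′ on the strand of the gene, with motif matches in capitals. Vegfa lies at chr17:46016993-46032369 (minus strand), Areg at chr5:91139599-91148432 (plus strand) and Gdf15 at chr8:70629393-70632456 (minus strand), all protein-coding genes of GENCODE M21 on GRCm38.
Vegfa, chr17:46032378-46032627, minus strand: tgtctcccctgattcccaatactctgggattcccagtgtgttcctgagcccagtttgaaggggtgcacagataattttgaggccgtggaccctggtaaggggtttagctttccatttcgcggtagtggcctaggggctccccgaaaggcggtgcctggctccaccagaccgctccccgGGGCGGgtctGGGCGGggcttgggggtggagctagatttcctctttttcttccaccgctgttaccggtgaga
Areg, chr5:91139349-91139598, plus strand: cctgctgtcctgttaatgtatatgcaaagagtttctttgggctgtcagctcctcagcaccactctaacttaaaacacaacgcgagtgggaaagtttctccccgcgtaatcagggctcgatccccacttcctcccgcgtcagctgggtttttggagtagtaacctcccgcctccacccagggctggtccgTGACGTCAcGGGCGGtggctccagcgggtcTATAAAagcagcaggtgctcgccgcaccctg
Gdf15, chr8:70632457-70632706, minus strand: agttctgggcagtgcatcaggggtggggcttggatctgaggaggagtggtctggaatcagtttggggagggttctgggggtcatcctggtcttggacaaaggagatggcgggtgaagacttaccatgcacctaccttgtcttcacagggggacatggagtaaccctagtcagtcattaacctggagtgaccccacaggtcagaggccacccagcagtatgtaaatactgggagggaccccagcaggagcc
The Areg window held 1 full cAMP response element (TGACGTCA), 1 TATA box (TATAAA) and 1 GC box (GGGCGG), whereas the Vegfa window held 2 GC boxes and the Gdf15 window held no match to the motifs searched. Vegfa and Gdf15 each have a second RefSeq start, whose windows are not shown: the second Vegfa window held 1 hypoxia response core (ACGTG) and 1 GC box, and the second Gdf15 window held 2 hypoxia response cores. Both strands were searched in windows of this length, and among 32851 such windows 1.55% held TGACGTCA, 4.46% held the AP-1 site TGACTCA, 16.6% held the hypoxia response core ACGTG, 12.4% held TATAAA and 32.7% held GGGCGG. Of the 10 growth factor genes, 8 were matched in the RefSeq table. A match describes the letters of the window only.

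Macrophages, the most abundant cells, had 87271954 of the 123642015 UMIs of all genes in the CD11c-selected cells, and the shares below stand beside that. They held most of the UMIs of 6 factors: 97.9% of Gdf15, 91.3% of Igf1, 87.1% of Pdgfa, 80.6% of Pdgfb, 78.3% of Vegfb and 73.7% of Vegfa. Areg also had most of its UMIs in macrophages (63.4%), with 13.9% in tumor cells and 13.8% in DCs. Its level in macrophages was nevertheless 0.741 times that in all other gated cells. Hbegf and Pgf were divided differently. Tumor cells held 52.3% of Hbegf UMIs and macrophages 40.9%, and for Pgf macrophages held 44.2% and DCs 34.9%. Vegfc was rare, with 103 UMIs in all, of which macrophages held 8.74%.

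**Figure D1:**
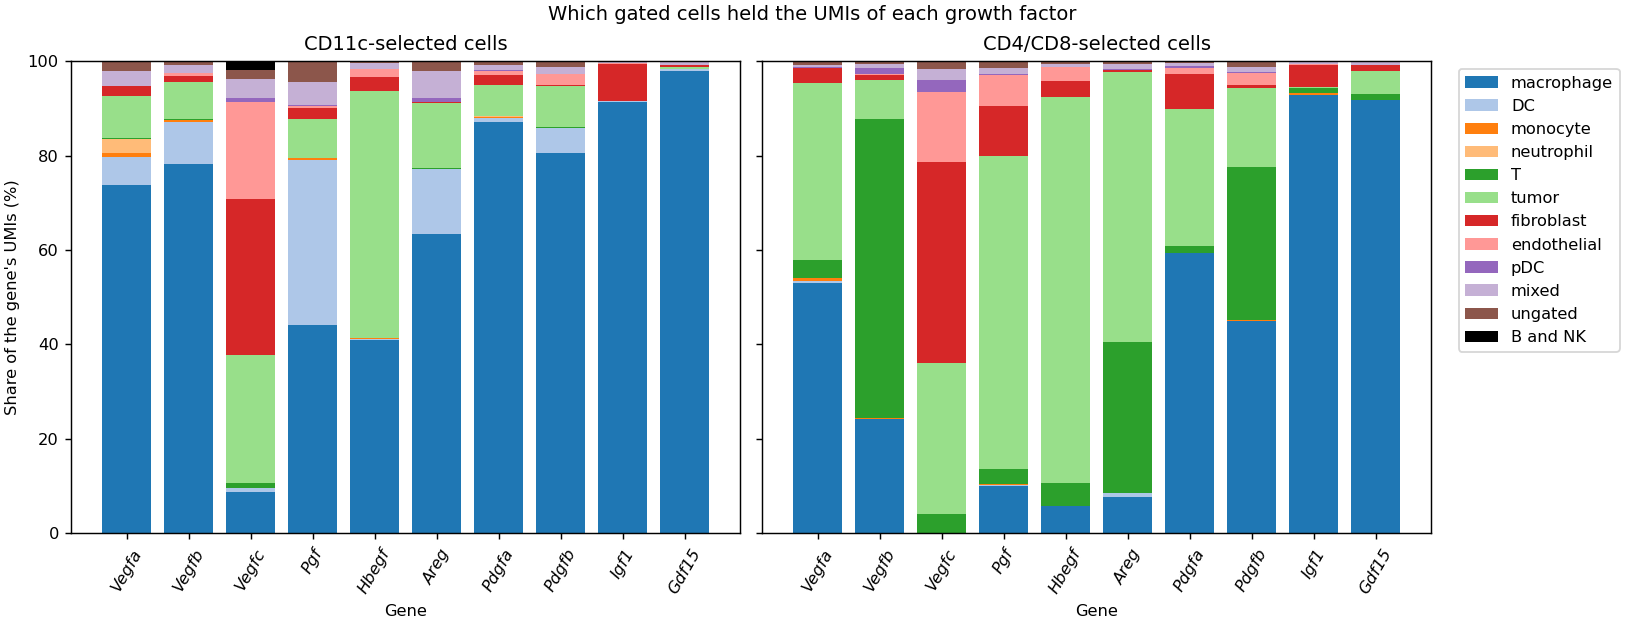
Share of each growth factor's UMIs (percent, y axis) held by each cell class, with 1 stacked bar per gene and 1 panel per selection; ungated and mixed cells have their own colors. Macrophages fill nearly the whole Gdf15 bar in the CD11c-selected cells (97.9%), while tumor cells fill 52.3% of the Hbegf bar there and 81.8% in the CD4/CD8-selected cells.

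Relative to all other gated CD11c-selected cells, macrophages were past 2-fold higher in 3 of 10 factors, where 7.67% of 13489 genes tested were past 2-fold higher. These were Gdf15, Igf1 and Pdgfa, with CPM ratios of 26.9, 3.78 and 2.63. The same comparison put 3 of 10 past 2-fold lower, Hbegf (ratio 0.241), Pgf (0.322) and Vegfc (0.035), against 22.3% of genes. Vegfa, at 191 CPM in macrophages, had a ratio of 1.17 and was therefore not particular to macrophages as a whole.

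Vegfa encodes the principal angiogenic ligand, and its level was highest in the neutrophil-like cells at 1331 CPM (1233 to 1435). The 3 barcode runs with enough of these cells gave 973, 1160 and 1649 CPM. Thbs1-gated macrophages followed at 383 CPM (373 to 393), with a lowest, median and highest run of 280, 372 and 455 CPM. The neutrophil-like cells were 3.48-fold higher (3.21 to 3.77), were higher in 3 of 3 runs, and their range did not overlap that of Thbs1-gated macrophages. This ratio ranged from 2.69 without run 6 to 3.97 without run 2. Despite their level, the 182 neutrophil-like cells held 3.01% of all Vegfa UMIs, whereas Thbs1-gated macrophages held 25.2%.

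Monocytes (351 CPM, 304 to 405), Gpnmb-gated macrophages (266 CPM, 255 to 277), tumor cells (255 CPM, 243 to 266) and fibroblasts (233 CPM, 212 to 254) came next for Vegfa. Monocytes overlapped Thbs1-gated macrophages in their intervals, and tumor cells overlapped both the Gpnmb gate and fibroblasts. Across runs, tumor cells ranged widely from 212 to 527 CPM and exceeded Thbs1-gated macrophages in 1 of 5 runs. The Gpnmb gate ranged from 263 to 301 CPM and was below the Thbs1 gate in 5 of 5 runs, although the lowest of those 5 Thbs1 runs (302 CPM) lay just above it and the run with too few Gpnmb-gated cells (280 CPM in the Thbs1 gate) lay within it. Macrophages of the Tmem119 gate (142 CPM, runs 59.2 to 234), Il10 gate (119 CPM, runs 63.0 to 153) and Retnla gate (84.7 CPM, runs 42.1 to 146) were lower than the Thbs1 gate in 6 of 6 runs without overlap. Lyve1-gated macrophages had the lowest Vegfa of the macrophage gates at 22.3 CPM, with runs from 4.90 to 35.1 CPM. Run 4 had the lowest Vegfa over all macrophages, 76.2 CPM, against a median of 196 and a highest run of 243 CPM.

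The share of cells with a Vegfa UMI was computed after every cell was thinned to 2000 UMIs. It was 72.1% in neutrophil-like cells (63.7% to 79.4%, exact binomial), 43.3% in the Thbs1 gate, 40.5% in the Gpnmb gate, 38.1% in fibroblasts, 37.1% in monocytes, 24.9% in tumor cells and 23.5% over all macrophages (37.8% without thinning). The first and second classes were as in the CPM order, whereas monocytes and tumor cells ranked lower by share of cells. T cells, taken as the background class, gave 8.20% in the CD11c-selected and 0.460% in the CD4/CD8-selected cells. DCs differed among themselves. cDC2 had 113 CPM of Vegfa and migratory DCs 123 CPM, whereas cDC1 had 12.98 CPM and was below cDC2 in 5 of 5 runs without overlap (0 to 29.0 against 94.3 to 187 CPM).

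**Figure D2:**
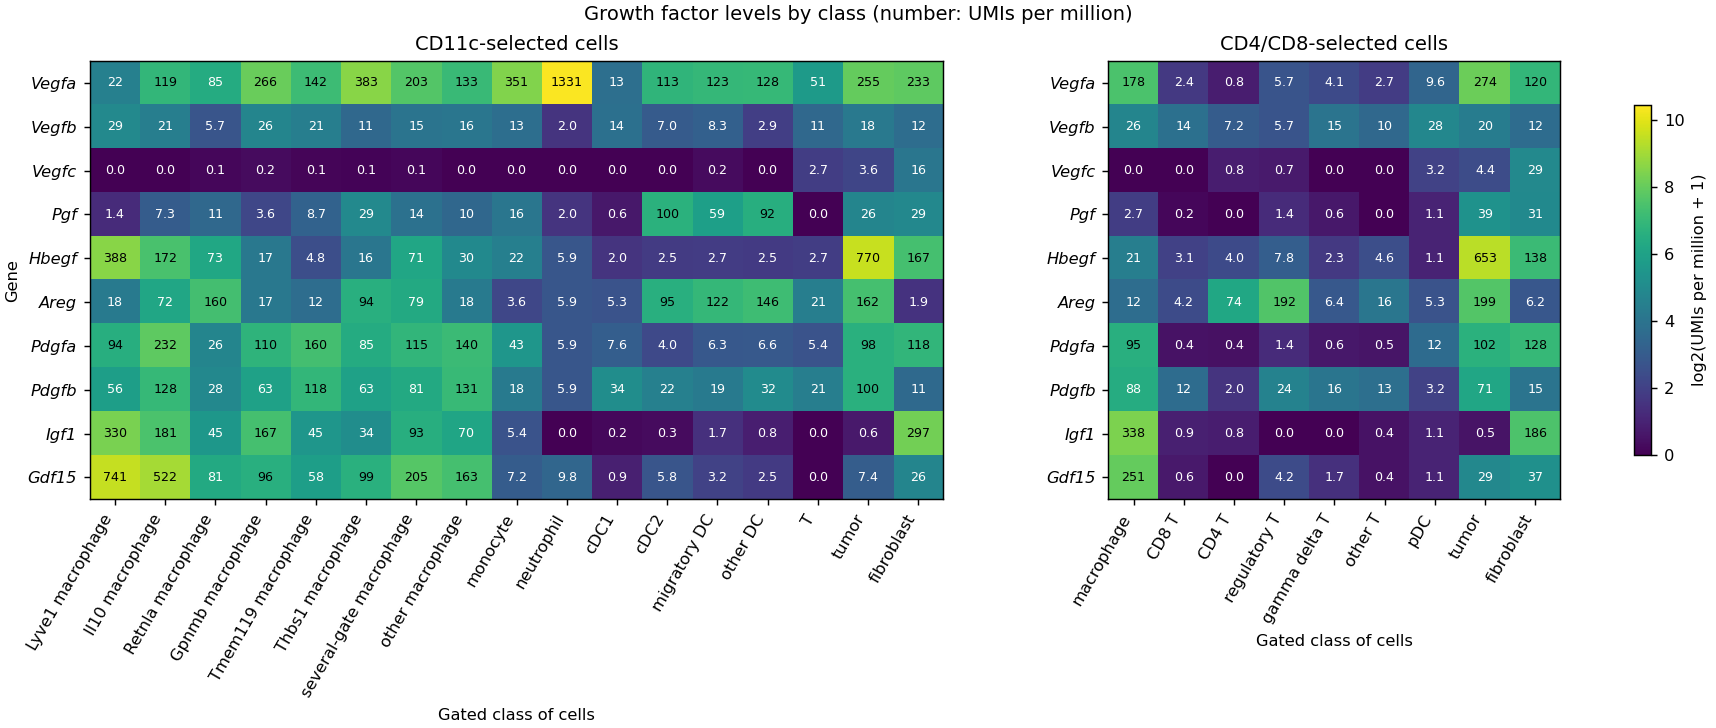
Heat map of growth factor levels, with genes in rows and gated classes of at least 50 cells in columns, 1 panel per selection; color is log2(CPM + 1) and the number in each square is CPM. Vegfa peaks in neutrophil-like cells (1331 CPM), Hbegf in tumor cells (770 CPM), Pgf in cDC2 (99.97 CPM), Gdf15 in Lyve1-gated macrophages (741 CPM) and, among T cells, Areg in regulatory T cells (192 CPM).

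Pgf encodes placental growth factor and was highest in DCs. cDC2 had 99.97 CPM (90.4 to 110), with runs of 76.8 to 161 CPM, and migratory DCs had 59.0 CPM, with runs of 21.9 to 82.5 CPM. cDC1 was nearly devoid of Pgf at 0.611 CPM, and both other DC types were higher in 5 of 5 runs without overlap. DCs that passed none of the DC sub-gates, or several with no margin between them, are called other DCs. They had 91.8 CPM, and the ratio of cDC2 to other DCs, 1.09 (0.922 to 1.29), did not separate the classes. DCs as a whole were 3.65-fold above all other gated cells in Pgf, the only factor of 10 past 2-fold higher there, where 6.08% of genes were, and 7 of 10 factors were past 2-fold lower, against 26.5% of genes. Among macrophages Pgf was highest in the Thbs1 gate at 29.0 CPM, which exceeded the Gpnmb gate (3.62 CPM) in 5 of 5 runs without overlap. It exceeded the Tmem119 gate (8.72 CPM) in 6 of 6, although the ranges overlapped (14.7 to 55.9 against 2.57 to 16.1 CPM). Fibroblasts (28.7 CPM) and tumor cells (25.7 CPM) had levels whose intervals overlapped that of the Thbs1 gate.

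Vegfb varied less than the other ligands of its family. Lyve1-gated (28.9 CPM), Gpnmb-gated (25.9 CPM), Tmem119-gated (21.01 CPM) and Il10-gated macrophages (20.9 CPM) had overlapping intervals. The Retnla gate stood lowest among macrophages at 5.69 CPM and was below the Tmem119 gate in 6 of 6 runs without overlap (3.48 to 8.84 against 13.3 to 32.9 CPM). Neutrophil-like cells, the highest for Vegfa, had a single Vegfb UMI (1.96 CPM).

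Vegfc, the lymphangiogenic ligand, was counted mainly in fibroblasts, tumor cells and endothelial cells. Fibroblasts had 16.3 CPM (11.3 to 22.7) and runs of 15.3, 19.1 and 21.6 CPM, and tumor cells had 3.56 CPM (2.37 to 5.14). The ratio was 4.57 (2.69 to 7.83). Only 9 Vegfc UMIs fell in the 8461 macrophages. The 37 endothelial cells, too few to be ranked, held 20.4% of all Vegfc UMIs at 33.8 CPM (20.9 to 51.6). Among the classes of at least 50 CD4/CD8-selected cells, Vegfc was again highest in fibroblasts (29.4 CPM), with 4.42 CPM in tumor cells and no UMI in macrophages (limit 0.155 CPM).

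Hbegf encodes heparin-binding EGF-like growth factor, and its level in tumor cells was 770 CPM (751 to 790). The 5 runs with enough tumor cells gave a lowest, median and highest level of 473, 744 and 1223 CPM. Lyve1-gated macrophages had 388 CPM (362 to 415), with runs of 230, 363 and 488 CPM. Tumor cells were 1.99-fold higher (1.85 to 2.14) and higher in 5 of 5 runs, although the ranges over runs overlapped. Il10-gated macrophages (172 CPM) and fibroblasts (167 CPM) did not separate by their intervals, and Retnla-gated macrophages had 73.1 CPM. The Il10 gate exceeded the Tmem119 gate in Hbegf in 6 of 6 runs without overlap (100.4 to 274 against 2.89 to 13.7 CPM). Thbs1-gated (16.1 CPM), Gpnmb-gated (17.3 CPM) and Tmem119-gated macrophages (4.76 CPM), neutrophil-like cells (5.87 CPM) and cDC2 (2.51 CPM) were low. After thinning, 58.7% of tumor cells and 40.6% of Lyve1-gated macrophages had an Hbegf UMI, compared with 0.738% of CD4/CD8-selected T cells. The tumor cells of the CD4/CD8-selected matrix had 653 CPM and held 81.8% of its Hbegf UMIs. Against the other gated CD11c-selected cells, tumor cells were past 2-fold higher in 3 of 10 factors, where 25.3% of genes were: Hbegf (ratio 15.7), Vegfc (5.62) and Areg (2.45). They were past 2-fold lower in 2 of 10, Gdf15 (0.058) and Igf1 (0.009), against 19.6% of genes. Against the T cell-rich CD4/CD8-selected cells, tumor cells were past 2-fold higher in 7 of 10, where 25.9% of genes were, led by Hbegf (ratio 68.1) and Pgf (30.3), and lower in 1 of 10, Igf1, where 21.2% were.

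Areg encodes amphiregulin and had no single leading class. Tumor cells (162 CPM, 153 to 171), Retnla-gated macrophages (160 CPM, 154 to 167) and other DCs (146 CPM) overlapped in their intervals. The ratio of tumor cells to the Retnla gate was 1.01 (0.945 to 1.09). Tumor cells had runs of 97.5, 241 and 309 CPM (lowest, median and highest) and were above the Retnla gate in 2 of 5. Migratory DCs (122 CPM), cDC2 (94.96 CPM) and Thbs1-gated macrophages (94.4 CPM) followed. The Retnla gate, with runs of 86.6, 164 and 241 CPM, was above the Thbs1 gate in 5 of 6 runs and above the Tmem119 gate (12.3 CPM) in 6 of 6 without overlap. Retnla-gated macrophages held 24.5% of all Areg UMIs. cDC1 had 5.34 CPM and was below cDC2 in 5 of 5 runs without overlap.

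Among the CD4/CD8-selected cells, Areg was the factor with the highest level in regulatory T cells. The 196 regulatory T cells, gated on Foxp3, had 192 CPM (170 to 216), CD4 T cells had 74.0 CPM (63.7 to 85.5) and CD8 T cells 4.24 CPM (3.82 to 4.70). Regulatory T cells in runs 1, 3, 4 and 5 had 136, 47.1, 201 and 382 CPM. CD4 T cells in the same runs had 30.9, 0, 189 and 182 CPM, which was lower in each run, although the ranges overlapped. CD8 T cells ranged from 2.21 to 6.49 CPM and did not overlap regulatory T cells. Against all other T cells the Areg ratio was 26.9 (23.3 to 30.9), and it ranged from 20.9 without run 5 to 33.7 without run 1. With 1 UMI added to each sum, 5 of the 7 factors with at least 50 UMIs in T cells were past 2-fold higher in regulatory T cells, where 14.4% of 11511 genes were, and Vegfb was past 2-fold lower (1 of 7, against 2.6%). Apart from Areg, however, these values rest on few UMIs in regulatory T cells: 34 of Pdgfb, 11 of Hbegf, 8 of Vegfa, 8 of Vegfb and 6 of Gdf15. After thinning, an Areg UMI was present in 23.5% of regulatory T cells (17.6% to 30.3%), 4.99% of CD4 T cells and 0.795% of CD8 T cells. The Areg level of tumor cells in this matrix was 199 CPM (190 to 209, runs 106 to 329 CPM), and its interval overlapped that of regulatory T cells.

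**Figure D3:**
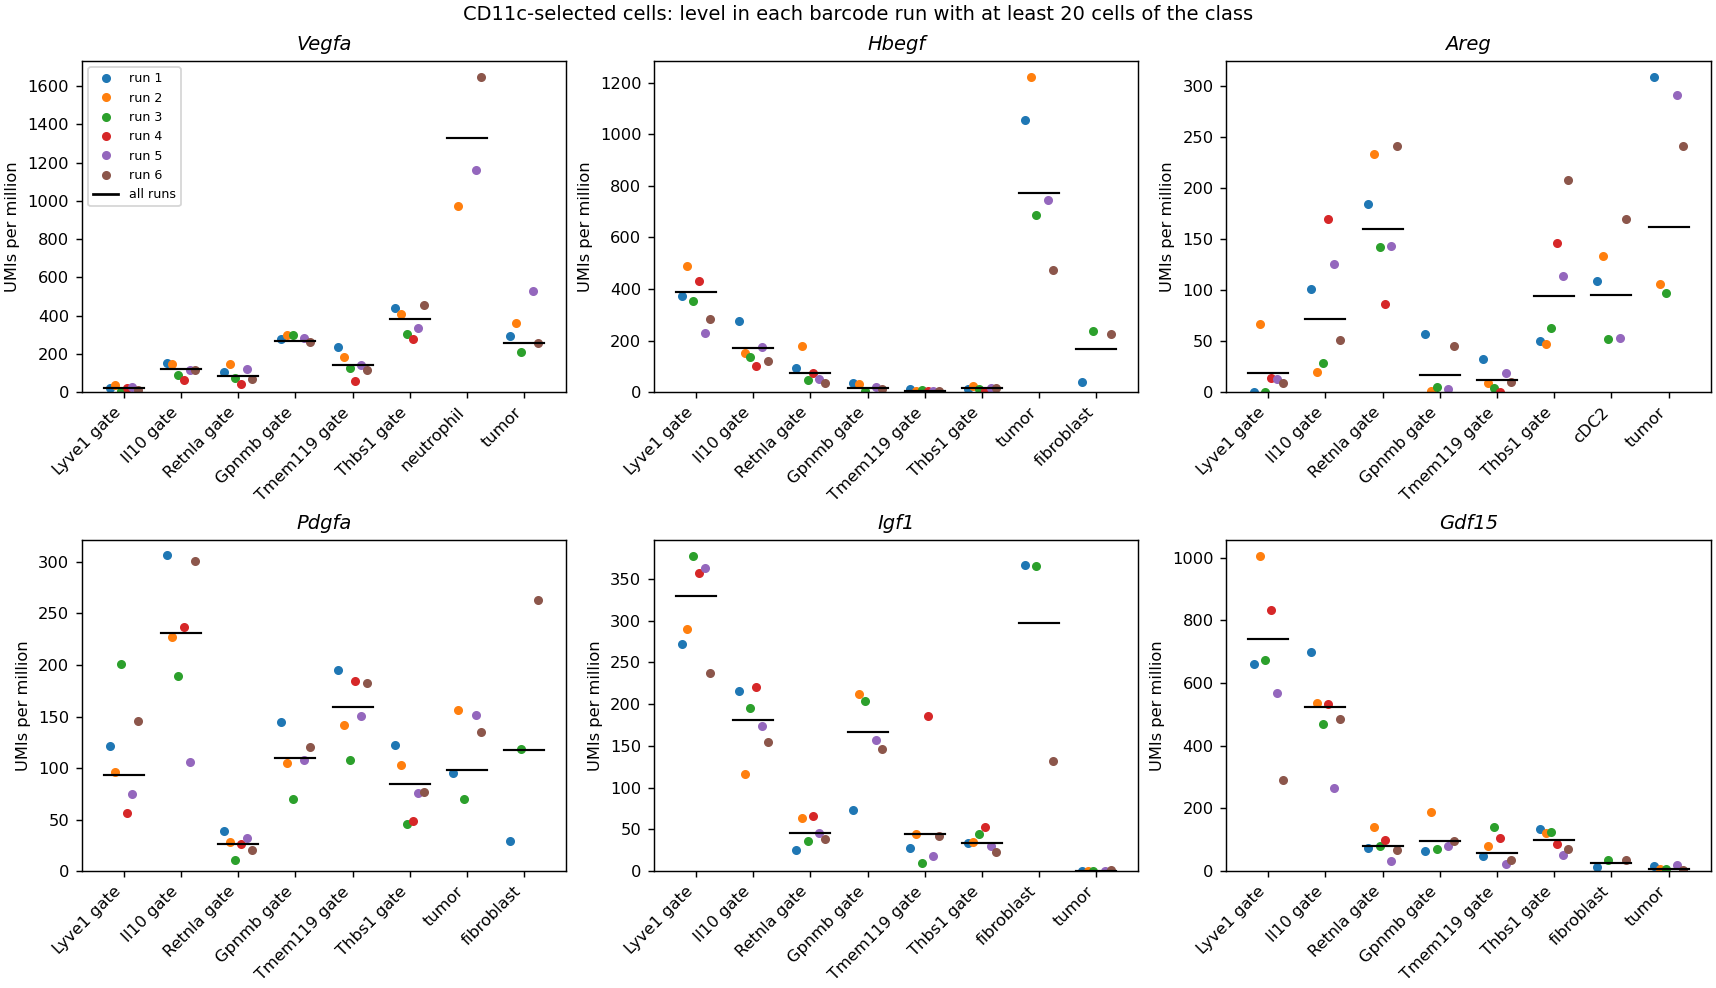
Level (CPM, linear axis from 0) of Vegfa, Hbegf, Areg, Pdgfa, Igf1 and Gdf15 in macrophage gates and other classes of the CD11c-selected cells; each colored point is 1 barcode run with at least 20 cells of the class, and black lines are all runs pooled. Runs are not linked to genotypes. The Vegfa points of neutrophil-like cells (973 to 1649 CPM) lie above those of every macrophage gate, and the Gdf15 points of the Lyve1 gate (292 to 1005 CPM) spread over those of the Il10 gate.

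Pdgfa and Pdgfb, whose products form the PDGF-AA, AB and BB dimers, were followed in turn. Pdgfa was highest in the Il10 gate at 232 CPM (220 to 243), with runs of 106, 232 and 306 CPM, and next in the Tmem119 gate at 160 CPM (154 to 166), with runs of 108, 167 and 195 CPM. The ratio was 1.45 (1.36 to 1.55), and the Il10 gate was higher in 5 of 6 runs with overlapping ranges. Fibroblasts had 118 CPM and tumor cells 97.8 CPM. The Retnla gate had 26.2 CPM and lay below the Tmem119 gate in 6 of 6 runs without overlap. All DC types were at 7.63 CPM or below.

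Pdgfb was shared by other macrophages (131 CPM), the Il10 gate (128 CPM, runs 108 to 160) and the Tmem119 gate (118 CPM, runs 97.4 to 132), whose intervals overlapped in order. Other macrophages are the shallow cells that passed no gate, and may not be a distinct type. The Retnla gate (28.1 CPM, runs 19.0 to 35.7) and the Thbs1 gate (63.0 CPM, runs 46.9 to 78.8) were below the Tmem119 gate in 6 of 6 runs without overlap. Tumor cells had 99.5 CPM overall but ranged from 30.2 to 295 CPM between runs. Endothelial cells, a known source of PDGF-B, had 331 CPM (288 to 380) over 37 cells. In the CD4/CD8-selected cells, T cells had a Pdgfb level with an interval of 11.3 to 12.7 CPM and held 32.4% of its UMIs.

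Igf1 was highest in macrophages and fibroblasts. Lyve1-gated macrophages had 330 CPM (306 to 355), with runs of 237, 324 and 378 CPM, and fibroblasts had 297 CPM (274 to 322), with runs of 132, 365 and 367 CPM. Their ratio was 1.11 (0.993 to 1.24), and fibroblasts were higher in 1 of 3 runs, so the 2 classes were not separated. The Il10 gate (181 CPM, runs 117 to 220) was below the Lyve1 gate in 6 of 6 runs without overlap, and the Gpnmb gate (167 CPM) did not differ from the Il10 gate beyond their intervals. Thbs1-gated macrophages had 34.3 CPM and were below the Il10 gate in 6 of 6 runs without overlap. No Igf1 UMI was found in neutrophil-like cells (limit 5.87 CPM), and tumor cells had 0.636 CPM. Over all macrophages, run 4 had the highest Igf1, 155 CPM, against a median of 73.3 CPM. Fibroblasts as a whole were past 2-fold higher in 2 of 10 factors, Igf1 (ratio 4.69) and Vegfc (29.6), where 22.4% of genes were, and lower in 3 of 10, Areg (0.026), Pdgfb (0.144) and Gdf15 (0.212), where 18.1% were.

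Gdf15 was the factor most limited to macrophages. The Lyve1 gate had 741 CPM (704 to 778), with runs of 292, 667 and 1005 CPM, and the Il10 gate 522 CPM (505 to 540), with runs of 265, 510 and 699 CPM. The ratio was 1.42 (1.34 to 1.51), but the Lyve1 gate was higher in 4 of 6 runs and the ranges overlapped. Both gates stood clear of the Thbs1 gate (99.4 CPM, runs 52.2 to 134), the Gpnmb gate (95.9 CPM) and the Tmem119 gate (57.8 CPM, runs 21.9 to 140), and the Il10 gate exceeded the Thbs1 and Tmem119 gates in 6 of 6 runs without overlap. Fibroblasts had 25.9 CPM, neutrophil-like cells 9.78 CPM, tumor cells 7.37 CPM and cDC1 0.916 CPM. Thinned to 2000 UMIs, 46.9% of Lyve1-gated and 37.6% of Il10-gated macrophages had a Gdf15 UMI. Gdf15 was also unevenly spread between cells. Its variance over macrophages was 4.36 times its mean after thinning, as compared with 3.92 for Areg, 2.09 for Vegfa, 1.60 for Igf1 and 1.02 for Vegfb, where a value of 1 is what counting alone gives. The means differed, at 0.387 UMIs per cell for Gdf15, 0.110 for Areg, 0.414 for Vegfa, 0.164 for Igf1 and 0.033 for Vegfb. Because this measure can rise with the mean, it does not rank the factors by unevenness.

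The macrophage gates thus carried different sets of factors, and each gate was compared with all other macrophages for the 9 factors with at least 50 UMIs in macrophages, Vegfc being left out. Folds here have 1 UMI added to each sum, and 11835 genes were tested. In the Lyve1 gate Hbegf (8.43-fold), Gdf15 (5.14-fold) and Igf1 (4.29-fold) were past 2-fold higher, 3 of 9 factors against 12.6% of genes. Vegfa (0.117 times the level), Pgf (0.147) and Areg (0.278) were past 2-fold lower, again 3 of 9 against 9.88% of genes. In the Il10 gate 4 of 9 were higher against 3.54% of genes, namely Gdf15 (4.04-fold), Hbegf (3.84-fold), Igf1 (2.42-fold) and Pdgfa (2.20-fold), and none was past 2-fold lower, against 5.62%. Gdf15 led an earlier cluster of Il10-gated cells in these data, so its place in this count is not independent.

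The Retnla gate had Areg past 2-fold higher (3.27-fold), 1 of 9 against 5.24% of genes, and 5 of 9 lower against 9.64%: Pdgfa (0.199), Pdgfb (0.300), Vegfb (0.319), Vegfa (0.401) and Gdf15 (0.465). In the Thbs1 gate Pgf (3.12-fold) and Vegfa (2.53-fold) were higher, 2 of 9 against 1.88%, and Hbegf (0.260) and Igf1 (0.369) were lower, 2 of 9 against 5.21%. This gate follows an earlier cluster in which Vegfa was high, so the place of Vegfa in the count is not independent. The Gpnmb gate had Igf1 higher (2.26-fold), 1 of 9 against 5.69%, and Pgf (0.274), Areg (0.237) and Hbegf (0.298) lower, 3 of 9 against 8.55%. The Tmem119 gate had none past 2-fold higher, against 2.49%, and 4 of 9 lower against 9.55%: Hbegf (0.072), Areg (0.153), Gdf15 (0.314) and Igf1 (0.481). Hbegf was thus past 2-fold lower in 3 of the gates and past 2-fold higher in 2.

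Pairs of factors were then followed in single macrophages after thinning, over 6930 cells. Among 35 pairs with at least 5 expected cells, 17 were found together more often and 18 no more often than independent draws would give. Each of the 35 pairs kept its side of 1 within gates and within gates and runs, but some lay at 1. Hbegf with Areg fell from 1.35 to 1.002 within gates and runs, and Pdgfb with Igf1 was 0.998 and 0.994. A kept side is therefore not a measure of strength, and no interval was computed for these ratios. Hbegf and Igf1 were both present in 178 cells where 69.3 were expected (2.57 times), Hbegf and Gdf15 in 221 where 88.2 were expected (2.51 times), and Igf1 and Gdf15 in 307 where 126 were expected (2.44 times). Within gates and runs these ratios were 1.49, 1.46 and 1.60. Pdgfa and Pdgfb were together in 278 cells against 181 expected (1.53 times, 1.36 within gates and runs). Fewer cells than expected had both Vegfa and Hbegf (75 against 136, 0.55 times) or both Areg and Pdgfa (23 against 62.7, 0.37 times). These were nearer 1 within gates and runs, at 0.737 and 0.515. Hbegf, Igf1 and Gdf15 therefore went together in single macrophages, and Vegfa and Hbegf went apart, as a description of sparse counts.

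**Figure D4:**
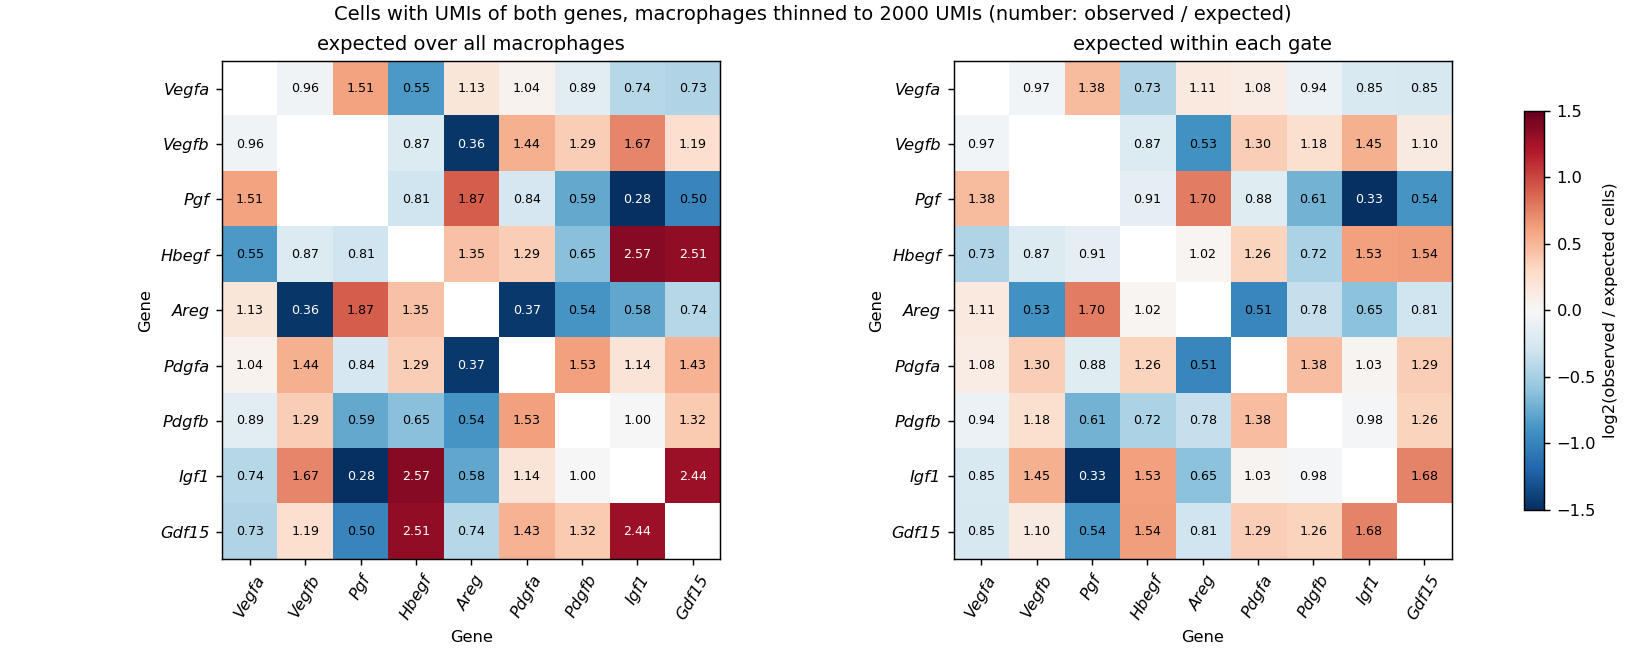
Co-detection of growth factors in 6930 CD11c-selected macrophages thinned to 2000 UMIs each; the number in a square is the count of cells with both genes divided by the count expected from their shares over all macrophages (left) or within each gate (right), color is its log2, and blank squares had under 5 expected cells. Hbegf with Igf1 (2.57), Hbegf with Gdf15 (2.51) and Igf1 with Gdf15 (2.44) are the highest on the left, and each is nearer 1 on the right (1.53, 1.54 and 1.68).

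Macrophages were also present among the CD4/CD8-selected cells, and their growth factor levels are given beside those of the CD11c-selected macrophages. Igf1 was at 338 CPM in the 1124 macrophages of the CD4/CD8-selected and 83.0 CPM in those of the CD11c-selected cells, a ratio of 4.07 (3.94 to 4.21). Runs ranged from 99.01 to 430 CPM and from 68.3 to 155 CPM, and the ranges overlapped. Run 3, which held 48.1% of these macrophages and 87.2% of the Gpnmb-gated ones, was the highest, and without it the Igf1 ratio was 2.08. Within the Gpnmb gate it was 2.77, and 1.82 without run 3. Without run 4 of the CD11c-selected cells the Igf1 ratio over all macrophages was 4.60.

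Areg (12.3 against 66.8 CPM, ratio 0.184), Pgf (2.69 against 12.6 CPM, ratio 0.213) and Hbegf (21.3 against 54.3 CPM, ratio 0.392) were lower in macrophages of the CD4/CD8 selection. Without run 3 the ratios were 0.360 for Areg, 0.333 for Pgf and 0.670 for Hbegf, which was then within 2-fold. In the Gpnmb gate without run 3, which left 43 cells, Areg was higher in the CD4/CD8 selection (ratio 3.43, 2.45 to 4.73). With all runs, Igf1 was 1 of 9 factors past 2-fold higher, where 4.69% of 12217 genes were, and these 3 of 9 were past 2-fold lower, where 6.53% of genes were. Gdf15 (ratio 1.58), Vegfb (1.63), Vegfa (0.933), Pdgfa (0.831) and Pdgfb (1.05) were within 2-fold with all runs. Without run 3 the Gdf15 ratio was 2.18 (2.09 to 2.28), past 2-fold, and the Pdgfa ratio was 1.10.

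**Figure D5:**
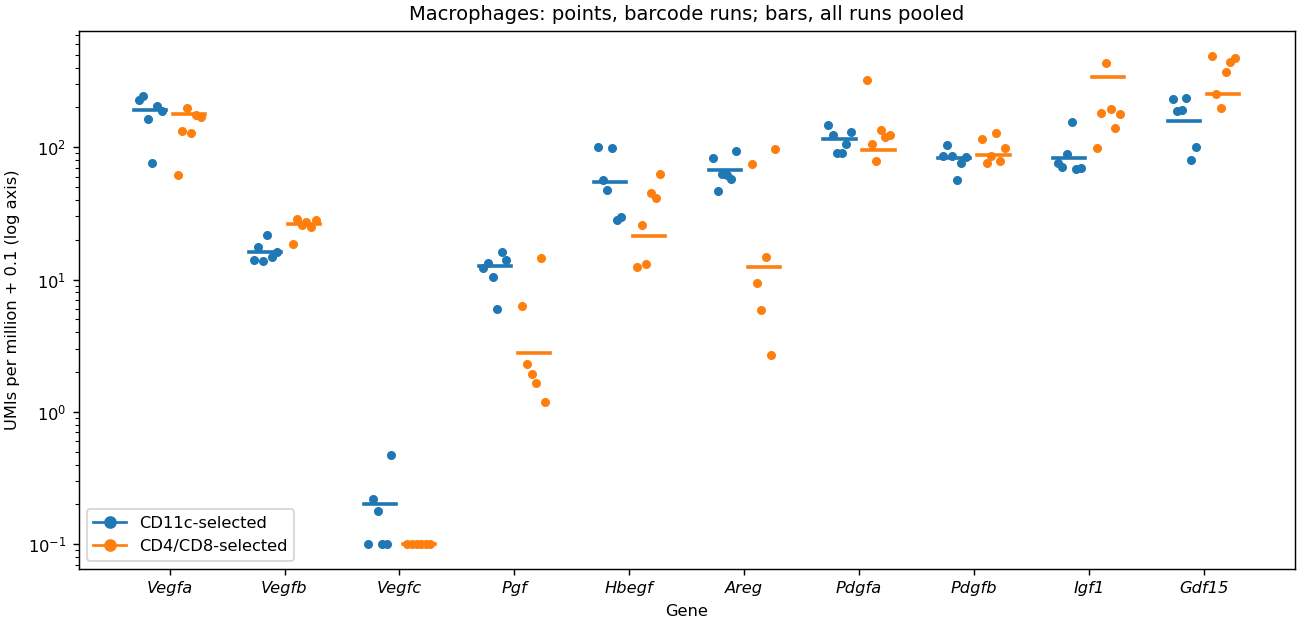
Growth factor levels in macrophages of each selection, drawn as CPM + 0.1 on a log axis; points are single barcode runs and horizontal bars are all runs pooled. Igf1 is higher in macrophages of the CD4/CD8 selection (338 against 83.0 CPM) and Areg, Pgf and Hbegf are lower in the pooled bars; without run 3 the Igf1 ratio is 2.08 and the Hbegf ratio 0.670.

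Igf1, Gdf15, Areg and Pdgfb were also set against the C1q genes in the CD4/CD8-selected T cells. Per 1000 UMIs of C1q genes, T cells had 34.99 UMIs of Igf1 and 27.9 of Gdf15, compared with 25.8 and 19.2 in macrophages of that matrix. T cell levels were 0.826 CPM for Igf1 and 0.659 CPM for Gdf15, and the part of free macrophage RNA in them was not tested. For Areg the same ratio was 412 in T cells against 0.940 in macrophages, and for Pdgfb 509 against 6.69. This ratio bears on RNA of macrophages only. Tumor cells of this matrix had 199 CPM of Areg and 70.9 CPM of Pdgfb, with 41.8 CPM of C1q genes. Free RNA of tumor or other cells in T cells was not tested.

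Relatives, receptors and processing genes of the factors were taken from a fixed list, and those reaching 50 CPM in a class were named. Of 14 further ligands 4 reached it: Vegfd, a lymphangiogenic ligand (145 CPM in fibroblasts), Pdgfc (99.5 CPM in Lyve1-gated macrophages), Fgf2 (67.8 CPM in fibroblasts of the CD4/CD8-selected cells) and the ErbB3 ligand Nrg1 (61.8 CPM in fibroblasts). The EGF-family ligands Tgfa, Ereg, Btc, Egf and Epgn did not, in contrast to Hbegf and Areg. Of 15 receptors 9 reached it. Fibroblasts were highest for Pdgfrb (252 CPM), Pdgfra (231 CPM), Egfr (121 CPM), Igf2r (111 CPM) and, in the CD4/CD8-selected cells, the VEGF receptor Flt1 (83.1 CPM). Neutrophil-like cells were highest for the IGF-1 receptor Igf1r (587 CPM), Lyve1-gated macrophages for the VEGF co-receptor Nrp1 (317 CPM), Gpnmb-gated macrophages of the CD4/CD8-selected cells for Nrp2 (260.4 CPM) and tumor cells for Erbb3 (92.0 CPM). The 37 endothelial cells had 1315 CPM of Flt1 and 732 CPM of Kdr. No UMI of Gfral, the GDF15 receptor, was counted in either matrix (limits 0.0243 and 0.0221 CPM).

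All 9 binding and shedding genes reached 50 CPM. The IGF-binding proteins were highest in fibroblasts or tumor cells, led by Igfbp5 (5631 CPM in tumor cells) and Igfbp7 (2751 CPM in fibroblasts). The sheddase Adam17, which releases HB-EGF and amphiregulin, was highest in other macrophages (173 CPM), Adam10 in tumor cells (135 CPM) and Cd9, a partner of the HB-EGF precursor, in tumor cells (1633 CPM). Of 9 genes induced by low oxygen or mediating its response 8 reached 50 CPM. The highest class was the Gpnmb gate for Ldha (858 CPM), Pgk1 (496 CPM) and Bnip3 (173 CPM), tumor cells for Ndrg1 (424 CPM) and Slc2a1 (200.05 CPM), regulatory T cells for Hif1a (519 CPM), fibroblasts for Adm (80.9 CPM) and neutrophil-like cells for Ero1l (104 CPM). Neutrophil-like cells, the highest for Vegfa, had 237 CPM of Hif1a and 178 CPM of Slc2a1, the glucose transporter gene, and were the highest class for neither. A link between these low-oxygen genes and Vegfa was not tested. Of 6 stress genes 3 reached 50 CPM, with Atf3 (819 CPM) and Atf4 (603 CPM) highest in the Lyve1 gate, which was also the highest for Gdf15, and Ddit3 (86.1 CPM) highest in neutrophil-like cells. Tumor cells had 652 CPM of Atf3 and 7.37 CPM of Gdf15 in the CD11c-selected matrix. In the CD4/CD8-selected matrix they had 592 CPM of Atf3 and 28.6 CPM of Gdf15. A link between these stress genes and Gdf15 was not tested.

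Over 31 classes of both matrices, which share libraries, the log2 levels of Igf1 and Gdf15 had a Pearson correlation of 0.90, Pdgfa and Gdf15 of 0.85, Pdgfa and Pdgfb of 0.74, and Areg and Igf1 of -0.30. Among 12270 genes with at least 300 UMIs, the 3 most like Vegfa were Tgm2 (0.943), Il13ra1 (0.905) and Ptgs2 (0.890), and the 3 most like Gdf15 were Selenop (0.952), Trpv4 (0.946) and Slco2b1 (0.938). Those most like Igf1 were Prune2 (0.964), Pmp22 (0.950) and Ang (0.946). For Hbegf they were C1qtnf1 (0.928), Fosl1 (0.910) and Cp (0.900), and for Areg Tbc1d30 (0.771), Gprc5a (0.761) and Espn (0.759). With a minimum of 1000 UMIs, 1 of these 3 was again among the 3 most like Areg, 2 of 3 for Hbegf, and 3 of 3 for each other factor. Itgb5 (0.948) and Fblim1 (0.946) were among the 3 most like Pdgfa, and Pdgfb was most like Smagp (0.863), Lap3 (0.855) and Ndufc2 (0.828). The closest to Pgf were Wnt11 (0.847), Samd4b (0.847) and Nectin1 (0.833), and the closest to Vegfb were Hivep3 (0.818), 0610012G03Rik (0.805) and Xylt2 (0.802). Vegfc had too few UMIs to be placed.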

How the data were processed

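The authors selected CD11c-positive or CD4/CD8-positive cells with magnetic beads, made 10x libraries and deposited whole-number UMI counts per gene and cell, not normalized, in 1 matrix for each selection. Cell Ranger 3.0.2 and mm10 are named in the submitters' processing notes. Each matrix pools 6 samples with no map from cells to samples, so no test, SE or p-value was computed and genotypes were not compared.

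Python 3.11.15 with numpy 2.4.6, scipy 1.17.1 and pandas 2.3.3 was used. Barcodes with fewer than 200 detected genes (341 and 295) were removed. A cell joined a class when its marker list held at least 3 UMIs of 2 genes and 2 times the UMIs of the next list. Macrophage gates needed 3 UMIs, DC gates 2. Classes under 50 cells were not ranked. Cells with 2 lists and no margin (245 and 48) were kept apart as mixed cells. No doublet caller was run. The neutrophil-like cells had a median of 2678 UMIs against 7943 over all CD11c-selected cells, and the Gpnmb gate 21529, so shares of cells were computed after thinning to 2000 UMIs. UMIs were summed per class. Ratios have exact conditional intervals. A fold past 2 counted as called, in genes with at least 50 UMIs. The scripts were tested on simulated data.

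All 10 growth factors were named, with the 3 genes most like each over classes, and relatives from a fixed list that reached 50 CPM; 1 gene like Pdgfa is not reported here. The members, lists and gates were chosen with earlier results of these data known: the Thbs1 gate follows a cluster in which Vegfa was high, and Gdf15 led an earlier cluster of Il10-gated cells, so neither is independent support. Class pairs compared run by run were picked after their levels were seen. Alternatives changed the gates, cell filters, weighting, thinning, the UMI minimum for likeness and runs.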

Additional observations from a re-analysis of the deposited data

How the results depend on the processing

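Of 190 ratios recomputed under the alternatives, 157 stayed within the counting interval of the reported value and 33 moved out of it. No ratio whose interval excluded 1 changed direction. With a list required at 4 times the next, the ratio was 3.19 for Vegfa, 1.11 for Areg and 1.55 for Pdgfa. With S100a8 and S100a9 in the neutrophil list it was 3.17 for Vegfa. With a mean over cells in place of summed UMIs it was 2.88 for Vegfa, 0.850 for Pgf, 2.36 for Hbegf, 0.916 for Areg, 1.57 for Pdgfa, 1.28 for Igf1 and 1.19 for Gdf15. With equal weight of runs, chosen after seeing the data, it was 2.33 for Hbegf and 1.21 for Areg. Leaving out 1 run at a time gave 2.69 to 3.97 for Vegfa, 1.85 to 2.19 for Hbegf, 0.880 to 1.39 for Areg, 1.32 to 1.52 for Pdgfa, 1.01 to 1.24 for Igf1, 1.28 to 1.61 for Gdf15 and 20.9 to 33.7 for Areg in regulatory over other T cells. The Igf1 ratio of CD4/CD8-selected to CD11c-selected macrophages, with alternatives chosen after seeing the data, was 2.08 without run 3, 4.60 without CD11c run 4, 2.77 in the Gpnmb gate, 3.21 without that gate and 1.82 in that gate without run 3. The class with the highest level was the same for 10 of 10 factors under 7 settings and without run 2. It was the same for 6 of 10 with the mean over cells (Vegfb, Pgf, Areg and Pdgfb changed class), and for 8 or 9 of 10 under the rest. The causes were not tested. Vegfa, Vegfc, Hbegf, Pdgfa, Igf1 and Gdf15 had the same highest class under every alternative run. No paired analysis was possible because cells could not be assigned to samples. Depth limits Vegfc (103 UMIs), for which no class other than fibroblasts and tumor cells of the ranked CD11c-selected classes had more than 2.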

Other observations

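Ungated and mixed cells of the CD11c-selected matrix held 0.176% to 4.49% and 0.315% to 5.68% of the UMIs of each growth factor, with Areg at the upper end of the mixed cells and Pgf at that of the ungated cells. Within macrophages the Areg variance over cells was 5.34 times its mean in the Thbs1 gate after thinning, and in tumor cells it was 4.56 times. The 37 endothelial cells of the CD11c-selected matrix had 307 CPM of Hbegf (265 to 354) and 158 CPM of Pdgfa (128 to 192), and no UMI of Areg (limit 4.83 CPM).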
